A study of Caenorhabditis elegans with 12 samples.

Results

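Animals can break down propionate by a vitamin B12-dependent route and, in Caenorhabditis elegans, also by a B12-independent propionate shunt. The transcripts followed here were the 5 shunt genes acdh-1, acdh-2, hach-1, hphd-1 and alh-8 and the 5 genes of the B12-dependent pathway pcca-1, pccb-1, mce-1, mmcm-1 and mmaa-1. They were chosen by name, with earlier results of these data known. The genes were found in the authors' table of normalized counts, where these 10 stood among 19568. All 10 had a mean of at least 10 normalized counts over the 12 libraries and so entered the test.

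Propionyl-CoA arises from odd-chain fatty acids and from valine, isoleucine, methionine and threonine. In the B12-dependent pathway, a biotin-containing carboxylase, an epimerase and a mutase that uses adenosylcobalamin turn it into succinyl-CoA, which enters the tricarboxylic acid cycle. The shunt instead oxidises propionyl-CoA inside mitochondria through 3-hydroxypropionate and malonic semialdehyde to acetyl-CoA, and in C. elegans its transcription is known to rise when B12 is scarce and propionate accumulates.

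Whole worms on a diet of HT115 E. coli were collected as L4 larvae, and their RNA was sequenced in 12 stranded paired-end libraries. The 4 groups, each of 3 biological replicates, were wildtype (N2 by library name), a strain with the mrps-38(P210L) change, a strain with the lonp-1(cmh24) allele, and a double mutant with both alleles. LONP-1 degrades proteins in the mitochondrial matrix, and the name mrps-38 denotes a small subunit protein of the mitoribosome. By its title the series asks how mitoribosomal mutations act on a deficiency of LONP-1. The labels give neither the molecular nature of cmh24 nor the number of worms in a library, and each mutant group is a single genotype.

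The libraries held 22614493 to 22890539 reads in genes, and 18072 to 19209 genes had at least 1 read. The lonp-1 transcript itself was at 1663, 1759 and 1643 normalized counts in wildtype, 1606, 1665 and 1569 in mrps-38(P210L), 1341, 1333 and 1344 in lonp-1(cmh24), and 1488, 1412 and 1412 in the double mutant. Between lonp-1(cmh24) and wildtype its log2 fold change was -0.33 ± 0.05 (SE, n = 3 and 3, adjusted p = 3.45e-05 by limma with Benjamini-Hochberg adjustment), but when libraries were scaled by total reads the difference was -0.10 (adjusted p = 0.113). Under that scaling lonp-1 was lower in mrps-38(P210L) than in wildtype (-0.32, adjusted p = 2.54e-04). It was higher in lonp-1(cmh24) than in mrps-38(P210L) (0.22, adjusted p = 0.00288). Transcripts of mrps-38 were not analysed here. Markers of intestine, epidermis, germline, sperm, yolk and body wall muscle were all detected in wildtype, as a whole worm should give. Their levels differed between the genotypes: the summed FPKM (fragments per kilobase of exon, scaled to the library's total) of 29 major sperm protein genes was 2888 to 3190 in wildtype, 61.2 to 431 in mrps-38(P210L), 4048 to 4380 in lonp-1(cmh24) and 18932 to 19761 in the double mutant, with 1 of the 29 at 0 in an mrps-38(P210L) library. The 7 germline and oocyte markers summed to 401 to 444, 187 to 221, 714 to 856 and 1005 to 1021 FPKM in the same order. The 6 yolk genes summed to 188 to 221, 1.23 to 7.65, 1513 to 2160 and 4898 to 4929 FPKM in that order. In RNA of whole animals, fewer cells of a type and less RNA per cell cannot be told apart. Whether the genotypes were at the same point of development at collection was not tested. A difference in stage cannot be told apart from an effect of the alleles.

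Most of the transcriptome differed between any pair of genotypes, so the share of all genes called is given beside each count of pathway genes. A gene was called when its two-sided limma test on log2(normalized count + 1) had a Benjamini-Hochberg adjusted p below 0.05 over the 15717 genes tested. All log2 fold changes below are on that scale and are given ± SE with n = 3 libraries per group.

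The shunt starts with acdh-1, an acyl-CoA dehydrogenase whose promoter is widely used as a reporter of dietary B12 in C. elegans. The gene (WBGene00016943) lies on chromosome I, 6497436 to 6499560, plus strand, in WBcel235, and was the most abundant of the 10 per length, at 1180 ± 38.2 FPKM (SD, n = 3) in wildtype. Its normalized counts were 45712, 43304 and 42803 in wildtype, 39309, 36579 and 40147 in mrps-38(P210L), 25603, 27290 and 27460 in lonp-1(cmh24), and 27158, 27775 and 28010 in the double mutant. Wildtype stood highest, mrps-38(P210L) somewhat lower without overlap, and both genotypes with lonp-1(cmh24) lowest and overlapping each other.

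Its paralog acdh-2 (WBGene00015894, chromosome II, 5544778 to 5547492, minus strand) was the least abundant of the 10 per length, at 33.8 ± 3.82 FPKM in wildtype. Its normalized counts were 1608, 1294 and 1314 in wildtype, 2786, 2623 and 2683 in mrps-38(P210L), 145, 276 and 252 in lonp-1(cmh24), and 983, 1002 and 1017 in the double mutant. No pair of groups overlapped, and acdh-2 spanned the widest range of the 10 genes. In the annotation it shares 87 exon bases with ins-13 on the same strand, and reads in that stretch could come from either gene.

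The later steps are hach-1, which encodes a hydrolase of 3-hydroxypropionyl-CoA, hphd-1, which encodes the dehydrogenase of 3-hydroxypropionate, and alh-8, which encodes the dehydrogenase that converts malonic semialdehyde to acetyl-CoA. The counts of hach-1 (WBGene00017301, chromosome III, 5555450 to 5557318, plus strand) were 8238, 7217 and 7704 in wildtype, 11607, 11596 and 10670 in mrps-38(P210L), 4291, 3598 and 3763 in lonp-1(cmh24), and 4438, 4382 and 4294 in the double mutant. Those of hphd-1 (WBGene00012608, chromosome II, 12994354 to 12996571, minus strand) were 15617, 12884 and 14854, then 20079, 20807 and 19808, then 9342, 8971 and 8998, and lastly 9356, 9778 and 9575 in the same order of groups. Both genes were highest in mrps-38(P210L), intermediate in wildtype and low in both genotypes that carry lonp-1(cmh24). The normalized counts of alh-8 (WBGene00000114, chromosome II, 11729055 to 11731198, plus strand) were 35431, 35238 and 37515 in wildtype, 48707, 50127 and 49981 in mrps-38(P210L), 27924, 25807 and 26671 in lonp-1(cmh24), and 35141, 36511 and 35583 in the double mutant. Here only lonp-1(cmh24) was low, and the double mutant lay within the wildtype range or just below it. On the opposite strand F13D12.8 shares 34 exon bases with alh-8. It had 222 to 347 reads per library against 31363 to 43073 for alh-8.

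In the B12-dependent pathway, pcca-1 and pccb-1 encode the alpha and beta subunits of propionyl-CoA carboxylase. Normalized counts of pcca-1 (WBGene00017864, chromosome X, 7657542 to 7660986, minus strand) were 6316, 5862 and 6440 in wildtype, 14267, 14350 and 12789 in mrps-38(P210L), 6607, 5081 and 5415 in lonp-1(cmh24), and 5406, 5491 and 5282 in the double mutant. Those of pccb-1 (WBGene00018701, chromosome X, 3089549 to 3092437, plus strand) were 7466, 7184 and 7641, then 18972, 18944 and 17523, then 8518, 6127 and 6883, and lastly 8092, 7933 and 7865. Both subunits stood far higher in mrps-38(P210L) than in any other library, while the double mutant lay a little below the wildtype range for pcca-1 and a little above it for pccb-1. The ratio of pccb-1 to pcca-1 FPKM was 1.55 to 1.61 in wildtype, 1.58 to 1.69 in lonp-1(cmh24), 1.73 to 1.80 in mrps-38(P210L) and 1.90 to 1.97 in the double mutant. Only wildtype and lonp-1(cmh24) overlapped in it. The antisense neighbour wrt-2 shares 43 exon bases with pccb-1 and had 236 to 2577 reads per library against 7446 to 16254 for pccb-1.

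The next steps are mce-1, methylmalonyl-CoA epimerase, and mmcm-1, the methylmalonyl-CoA mutase, while mmaa-1 encodes a protein related to the GTPase that loads the mutase with its cofactor in humans. Normalized counts of mce-1 (WBGene00008415, chromosome I, 7582106 to 7583333, plus strand) were 899, 903 and 867 in wildtype, 1400, 1361 and 1402 in mrps-38(P210L), 1160, 881 and 931 in lonp-1(cmh24), and 1060, 1106 and 1025 in the double mutant. Those of mmcm-1 (WBGene00014202, chromosome III, 3903185 to 3907687, minus strand) were 2774, 2789 and 2875, then 4323, 4190 and 3970, then 2982, 2363 and 2587, and lastly 2847, 2672 and 2887. Again mrps-38(P210L) stood alone above the rest. The normalized counts of mmaa-1 (WBGene00020169, chromosome II, 7099583 to 7101165, minus strand) were 2085, 1664 and 1988 in wildtype, 1817, 1682 and 1784 in mrps-38(P210L), 2179, 2325 and 2378 in lonp-1(cmh24), and 1778, 1794 and 1784 in the double mutant. This gene alone of the 10 was highest in lonp-1(cmh24), and the other 3 groups overlapped.

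**Figure D1:**
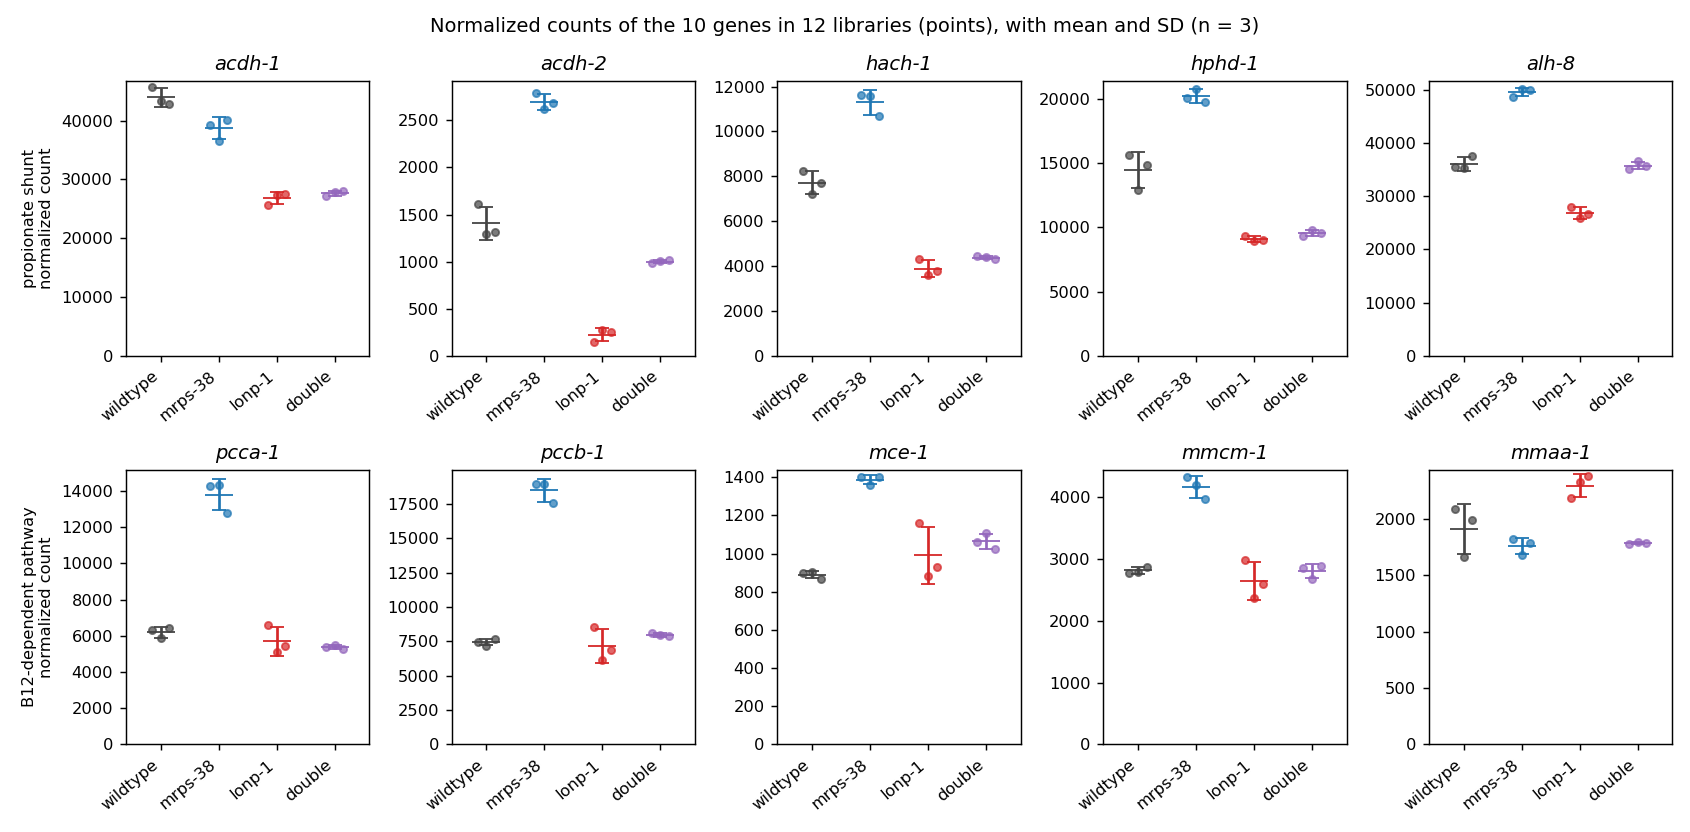
Normalized counts of the 10 genes in each of the 12 libraries by genotype, one panel per gene; points are libraries, and lines and bars are the group mean and SD (n = 3). The points of mrps-38(P210L) lie above every other library in 8 of the 10 panels, the exceptions being acdh-1 and mmaa-1.

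The lonp-1(cmh24) allele alone was accompanied by lower shunt transcripts, with no such change called in the B12-dependent pathway. All 5 shunt genes fell against wildtype, while of the 5 B12-pathway genes 1 rose, none fell and 4 were not called. In all, 6 of the 10 genes were called, beside 62.7% of all genes tested, of which 30.6% were higher and 32.1% lower. The largest change was in acdh-2, which fell 6.45-fold (log2 fold change -2.69 ± 0.20, adjusted p = 8.80e-07). The hydrolase hach-1 fell 1.99-fold (-0.99 ± 0.07, adjusted p = 5.62e-08) and acdh-1 fell 1.64-fold (-0.71 ± 0.05, adjusted p = 1.07e-07). Smaller decreases were found for hphd-1 (-0.66 ± 0.06, adjusted p = 1.12e-06) and for alh-8 (-0.43 ± 0.05, adjusted p = 5.82e-06). All 4 markers of body wall muscle fell, with a median of -0.99. They summed to 734 to 795 FPKM in lonp-1(cmh24) and 1252 to 1535 FPKM in wildtype. Of the 6 epidermis markers 3 fell and 1 rose, and of the 8 intestine markers 1 fell and 1 rose. Among the 7 germline and oocyte markers 5 rose and 2 fell, and 5 of the 6 yolk genes rose and none fell. In the 29 sperm markers 1 fell and none rose. The part of these markers in the lower shunt transcripts was not tested. The median over the shunt was -0.71 and that over the B12-dependent pathway -0.06, with a median of -0.06 over all genes tested.

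Among the B12-pathway genes, mmaa-1 rose 1.20-fold in lonp-1(cmh24) (0.27 ± 0.07, adjusted p = 0.00570). The carboxylase subunits had log2 fold changes of -0.13 ± 0.08 for pcca-1 (adjusted p = 0.195) and -0.06 ± 0.09 for pccb-1 (adjusted p = 0.567). For mce-1 the value was 0.15 ± 0.08 (adjusted p = 0.142) and for mmcm-1 -0.10 ± 0.07 (adjusted p = 0.268). In lonp-1(cmh24) all 4 of these genes were highest in replicate 1, and without that library pcca-1 (-0.24, adjusted p = 0.00389), pccb-1 (-0.19, adjusted p = 0.0109) and mmcm-1 (-0.19, adjusted p = 0.0102) were called lower. The 8 intestine markers summed to 151880 normalized counts in that library and to 98280 and 108144 in the others. In replicate 1 the yolk genes summed to 144419 against 201760 and 192366, and the germline and oocyte markers to 33435.5 against 39039.8 and 37781.7. In wildtype the intestine markers were lowest in replicate 2 (110694 against 159588 and 150987). There the 4 genes were at 0.92 to 1.02 times the mean of the other wildtype libraries. By the same measure mmaa-1 was at 0.82, hphd-1 at 0.85, acdh-2 at 0.89, hach-1 at 0.91, alh-8 at 0.97 and acdh-1 at 0.98. The part of these markers in the difference was not tested. Without replicate 2 of lonp-1(cmh24), mce-1 was called higher (0.22, adjusted p = 0.0281).

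The size of the fold changes depends on how libraries are scaled. Scaling by total reads, as in the authors' FPKM, shifted the median of all genes in this comparison from -0.06 to 0.17, and the share of called genes that were higher from 48.8% to 67.1%. With it the 5 shunt genes were still lower, by log2 fold changes of -2.45 to -0.20 with a median of -0.49, and mce-1 was called higher (0.37, adjusted p = 0.00169).

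In mrps-38(P210L) most transcripts of both routes were higher than in wildtype, with the largest increases in the B12-dependent pathway. There 4 of 5 B12-pathway genes rose, as did 4 of 5 shunt genes, while acdh-1 fell. So 9 of 10 were called, beside 66.3% of all genes tested, and 8 were higher and 1 lower, beside 31.5% and 34.7% of all genes. Propionyl-CoA carboxylase changed most, with pccb-1 up 2.49-fold (1.31 ± 0.09, adjusted p = 9.79e-08) and pcca-1 up 2.22-fold (1.15 ± 0.08, adjusted p = 1.44e-07). The epimerase gene mce-1 rose by 0.64 ± 0.08 (adjusted p = 1.64e-05) and mmcm-1 by 0.56 ± 0.07 (adjusted p = 1.61e-05). In the shunt, acdh-2 rose by 0.95 ± 0.20 (adjusted p = 0.00169), hach-1 by 0.55 ± 0.07 (adjusted p = 1.43e-05), hphd-1 by 0.49 ± 0.06 (adjusted p = 1.89e-05) and alh-8 by 0.46 ± 0.05 (adjusted p = 3.62e-06). The first shunt gene moved the other way, since acdh-1 was lower by -0.18 ± 0.05 (adjusted p = 0.00818).

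The exception in the B12-dependent pathway was mmaa-1, at -0.11 ± 0.07 (adjusted p = 0.187); it was called lower without replicate 2 of wildtype (-0.21, adjusted p = 0.00513). Total-read scaling moved the median of all genes from -0.01 to -0.26 in this comparison and the share of called genes that were higher from 47.6% to 25.4%. Under it the same 8 genes were called higher, by 0.21 to 1.06, with acdh-1 at -0.44 and mmaa-1 called lower at -0.37 (adjusted p = 6.63e-04). Of the 8 intestine markers, 5 were called higher in mrps-38(P210L) than in wildtype and none lower, beside the 31.5% and 34.7% of all genes, and 1 was called higher and none lower under total-read scaling. Their summed normalized counts were 212535 to 238359 against 110694 to 159588. All 7 germline and oocyte markers, all 29 sperm markers and all 6 yolk genes were called lower, also under total-read scaling. All 4 body wall muscle markers were called higher, and none under total-read scaling. In replicate 3 of mrps-38(P210L) the sperm markers summed to 431 FPKM against 62.6 and 61.2. By normalized counts pcca-1, pccb-1, mmcm-1, hach-1 and hphd-1 were lowest in that library. There acdh-2 and alh-8 lay between the other replicates, and mce-1 was highest. Leaving out 1 library at a time gave 1.11 to 1.21 for pcca-1 and 1.29 to 1.35 for pccb-1. The part of the markers in the higher pathway transcripts was not tested.

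In the double mutant the shunt was lower than in wildtype, except at its last step, and the B12-dependent pathway was near wildtype. Of the shunt genes 4 fell and 1 was not called, and of the B12-pathway genes 1 rose, 1 fell and 3 were not called, so that 6 of 10 were called beside 74.5% of all genes tested (40.9% higher and 33.6% lower). hach-1 fell by 0.82 on the log2 scale (SE 0.07, adjusted p = 2.21e-07), acdh-1 by 0.67 (SE 0.05, adjusted p = 1.30e-07) and hphd-1 by 0.59 (SE 0.06, adjusted p = 2.39e-06). The last enzyme of the shunt, alh-8, was at -0.01 ± 0.05 (adjusted p = 0.831). The epimerase gene mce-1 rose by 0.26 ± 0.08 (adjusted p = 0.0124), a call lost with the scaling factors of edgeR's TMM method (0.13, adjusted p = 0.164) and with edgeR (0.14, adjusted p = 0.127).

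The calls of acdh-2 and pcca-1 in this comparison were fragile. For acdh-2 the log2 fold change was -0.48 ± 0.20 (adjusted p = 0.0471), and leaving out any 1 of the wildtype or double mutant libraries, or replicate 1 or 2 of mrps-38(P210L), which shares the estimate of spread, ended the call (adjusted p = 0.0575 to 0.15). It was also lost with replicate number as a block (adjusted p = 0.0737) and without the filter on low counts (adjusted p = 0.0570). For pcca-1 it was -0.20 ± 0.08 (adjusted p = 0.0442), which ended without replicate 1 or 3 of wildtype, 1 or 2 of mrps-38(P210L), 3 of lonp-1(cmh24) or any of the double mutant (adjusted p = 0.0521 to 0.13). The remaining genes were pccb-1 at 0.10 ± 0.09, mmcm-1 at -0.01 ± 0.07 and mmaa-1 at -0.09 ± 0.07, with adjusted p of 0.329, 0.942 and 0.262. Of these, mmaa-1 was called lower with TMM factors (-0.22, adjusted p = 0.0246), with edgeR (-0.21, adjusted p = 0.0199) and without replicate 2 of wildtype (-0.19, adjusted p = 0.00796), and alh-8 with TMM factors (-0.14, adjusted p = 0.0320).

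**Figure D2:**
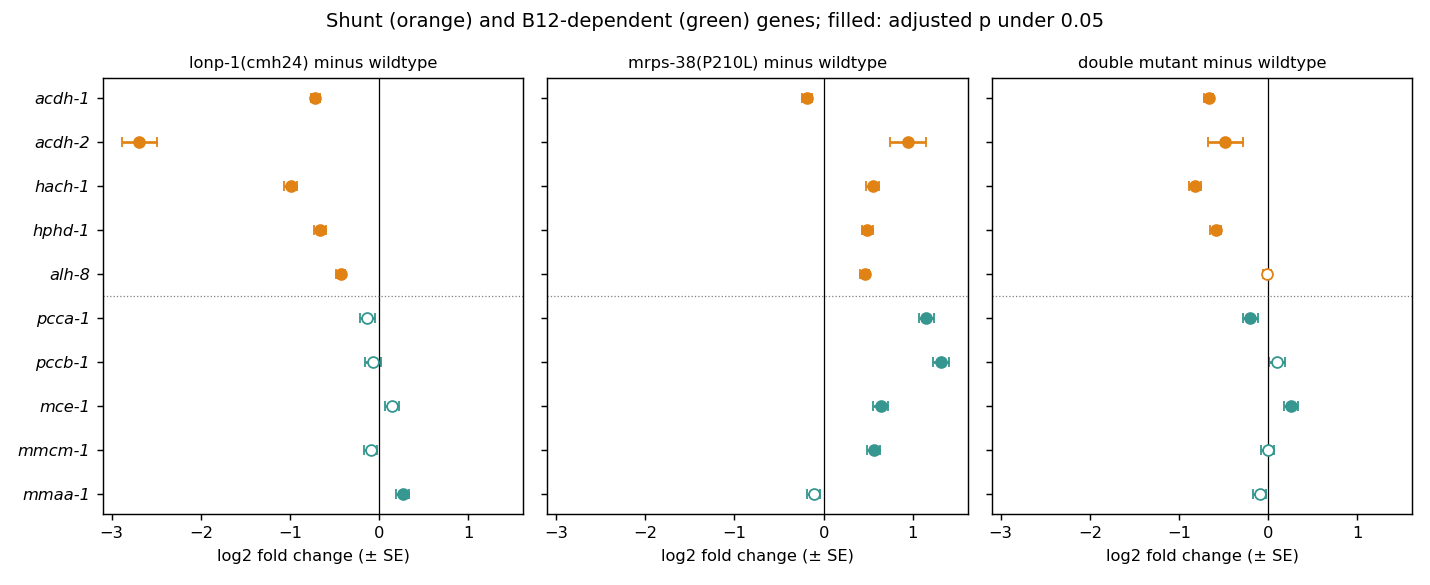
Log2 fold changes of the 10 genes against wildtype in the 3 mutant genotypes, on the log2(normalized count + 1) scale; points are estimates, filled where the adjusted p is below 0.05, and bars are SE. All shunt genes lie below 0 in lonp-1(cmh24), while in mrps-38(P210L) 8 genes lie above 0; the 3 comparisons share the wildtype libraries.

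Set directly against lonp-1(cmh24), the double mutant differed most in 3 genes by the authors' normalization. acdh-2 was 4.62-fold higher (2.21 ± 0.20, adjusted p = 8.53e-06), alh-8 was 1.33-fold higher (0.42 ± 0.05, adjusted p = 1.61e-05) and mmaa-1 was lower (-0.36 ± 0.07, adjusted p = 0.00110). hach-1 was also called (0.17 ± 0.07, adjusted p = 0.0482), giving 4 of 10 called beside 54.3% of all genes tested (29.8% higher and 24.5% lower). That last call did not last: it was lost with TMM factors (0.04, adjusted p = 0.644), edgeR (0.02, adjusted p = 0.837), DESeq2 (0.16, adjusted p = 0.0624), without the filter (adjusted p = 0.0507) and without most single libraries (replicate 3 of wildtype, 1 or 2 of mrps-38(P210L), 2 or 3 of lonp-1(cmh24), or any of the double mutant; adjusted p = 0.0587 to 0.18), and it turned to -0.04 under total-read scaling. The early and middle shunt genes acdh-1 (0.05 ± 0.05, adjusted p = 0.485) and hphd-1 (0.07 ± 0.06, adjusted p = 0.360) were not called.

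In the B12-dependent pathway the other 4 genes were not called against lonp-1(cmh24), with log2 fold changes of -0.07 ± 0.08 for pcca-1, 0.16 ± 0.09 for pccb-1, 0.11 ± 0.08 for mce-1 and 0.09 ± 0.07 for mmcm-1. Leaving out replicate 1 of lonp-1(cmh24) raised the count to 7 of 10, adding pccb-1 (0.29, adjusted p = 0.00113), mce-1 (0.23, adjusted p = 0.00207) and mmcm-1 (0.18, adjusted p = 0.0158). Scaling mattered here too: the median of all genes was 0.03 by the authors' normalization, -0.10 with TMM factors, -0.13 with edgeR and -0.18 by total reads, and 54.9%, 38.4%, 37.1% and 31.2% of called genes were higher. By total reads acdh-1 (-0.17, adjusted p = 0.0159), hphd-1 (-0.14, adjusted p = 0.0360) and pcca-1 (-0.28, adjusted p = 0.00870) were called lower. With that scaling acdh-2 (1.98) and alh-8 (0.20) were still called higher and mmaa-1 (-0.57) lower, and the change of pcca-1 was larger in size than that of alh-8.

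The effect of lonp-1(cmh24) was then compared between the backgrounds. In worms that carry mrps-38(P210L), it was accompanied by lower levels of all 5 shunt genes and of 4 of 5 B12-pathway genes, 9 of 10 in all beside 83.6% of all genes tested (43.6% higher and 40% lower). The log2 fold changes between the double mutant and mrps-38(P210L) were -0.48 ± 0.05 for acdh-1, -1.43 ± 0.20 for acdh-2, -1.37 ± 0.07 for hach-1, -1.08 ± 0.06 for hphd-1 and -0.47 ± 0.05 for alh-8, with adjusted p from 7.10e-10 to 5.21e-05. The carboxylase genes changed to a like degree, pcca-1 by -1.35 ± 0.08 (adjusted p = 4.92e-09) and pccb-1 by -1.21 ± 0.09 (adjusted p = 3.39e-08). Decreases were smaller for mmcm-1 (-0.57 ± 0.07, adjusted p = 6.02e-06) and mce-1 (-0.38 ± 0.08, adjusted p = 6.77e-04), and mmaa-1 was at 0.02 ± 0.07 (adjusted p = 0.798). Total-read scaling moved the median of all genes from 0.05 to 0.32 and the share of called genes that were higher from 52.2% to 62.8%. Under it mce-1 was no longer called (-0.11, adjusted p = 0.209) and mmaa-1 was called higher (0.29, adjusted p = 0.00224). In this comparison all 29 sperm markers, all 6 yolk genes and all 7 germline and oocyte markers were called higher. All 4 body wall muscle markers and 5 of the 6 epidermis markers were called lower. Of the 8 intestine markers 2 were called lower and none higher, and under total-read scaling 2 were higher and none lower. The part of these markers in the lower pathway transcripts was not tested.

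Whether the effect differed between backgrounds was tested with the interaction term, the log2 effect of lonp-1(cmh24) in mrps-38(P210L) minus that in wildtype. All 5 B12-pathway genes and 4 of 5 shunt genes were called, 9 of 10 beside 66% of all genes tested (34.4% with a positive and 31.6% with a negative term). Every B12-pathway term was negative, with -1.22 ± 0.12 for pcca-1 (adjusted p = 1.36e-06), -1.15 ± 0.13 for pccb-1 (adjusted p = 4.93e-06), -0.53 ± 0.12 for mce-1 (adjusted p = 0.00132) and -0.47 ± 0.10 for mmcm-1 (adjusted p = 0.00112). In the shunt the terms split: hach-1 (-0.37 ± 0.10, adjusted p = 0.00432) and hphd-1 (-0.42 ± 0.09, adjusted p = 0.00117) fell further in the mrps-38(P210L) background, whereas acdh-2 (1.26 ± 0.28, adjusted p = 0.00247) and acdh-1 (0.23 ± 0.08, adjusted p = 0.0163) fell less. The term of alh-8 was -0.04 ± 0.07 (adjusted p = 0.592). That of acdh-1 was not called with TMM factors (0.13, adjusted p = 0.188) or edgeR (0.10, adjusted p = 0.325). That of mmaa-1 (-0.25 ± 0.10, adjusted p = 0.0485) was lost under total-read scaling, without the filter and without replicate 2 of wildtype, 1 or 3 of mrps-38(P210L), 2 or 3 of lonp-1(cmh24) or any of the double mutant, with adjusted p up to 0.105. A positive term was called for all 29 sperm markers, all 7 germline and oocyte markers, all 6 yolk genes and 3 of the 4 body wall muscle markers. A negative term was called for 5 of the 6 epidermis markers and 1 of the 8 intestine markers. The part of these markers in the terms of the 10 genes was not tested.

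**Figure D3:**
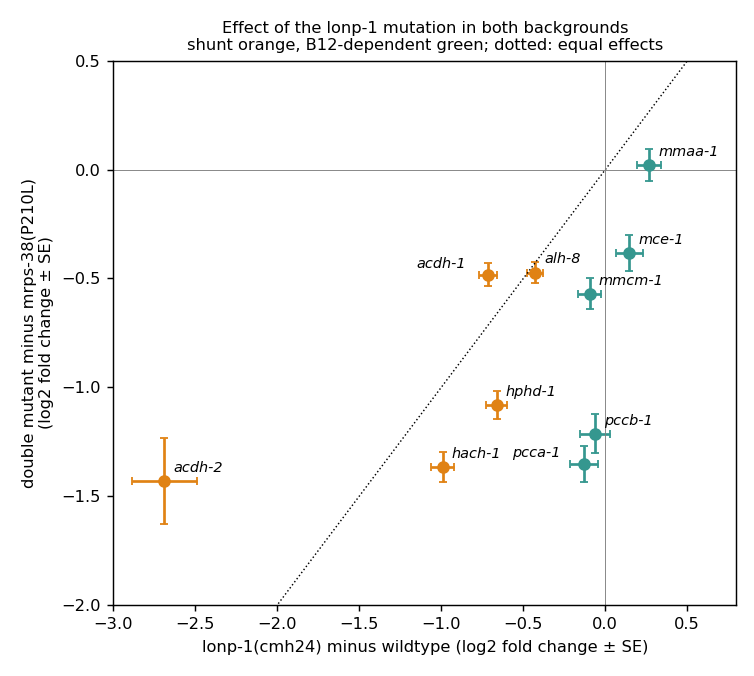
Log2 effect of lonp-1(cmh24) on each of the 10 genes in the wildtype background (x axis) and in the mrps-38(P210L) background (y axis), with SE bars and a line of equal effect. pcca-1 and pccb-1 lie near 0 on the x axis and below -1 on the y axis, and acdh-2 lies above the line.

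The single mutants also differed from each other in all 10 genes, beside 81.5% of all genes tested (42.6% higher and 38.8% lower). All 5 shunt genes were lower in lonp-1(cmh24) than in mrps-38(P210L), from acdh-2 at 12.4-fold (-3.64 ± 0.20, adjusted p = 4.08e-08) to acdh-1 at 1.44-fold (-0.53 ± 0.05, adjusted p = 8.53e-07), as were 4 B12-pathway genes, from -1.38 ± 0.09 for pccb-1 to -0.50 ± 0.08 for mce-1. Only mmaa-1 of the 10 was higher (0.38 ± 0.07, adjusted p = 2.91e-04). Total-read scaling raised the median of all genes in this comparison from 0.04 to 0.53 and the share of called genes that were higher from 52.3% to 75.3%, and acdh-1 (-0.05, adjusted p = 0.439) and mce-1 (-0.01, adjusted p = 0.899) were then not called.

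The balance of the routes was described by the summed FPKM of the 5 shunt genes over that of the 5 B12-pathway genes in each library, a ratio in which the scaling of the library cancels. Wildtype libraries held 6.13, 6.10 and 5.93 times as much shunt as B12-pathway transcript, mrps-38(P210L) libraries 3.48, 3.49 and 3.78 times, lonp-1(cmh24) libraries 3.46, 4.29 and 4.04 times, and double mutant libraries 4.40, 4.56 and 4.57 times. Every mutant library lay below every wildtype library, and the single mutants overlapped. On the log2 scale the ratio was 2.60 ± 0.03 (SD, n = 3) in wildtype, 2.17 ± 0.03 in the double mutant, 1.97 ± 0.16 in lonp-1(cmh24) and 1.84 ± 0.07 in mrps-38(P210L). No p is given, since the genes were chosen with results of these data known.

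The low ratio of the single mutants had different sums behind it. In mrps-38(P210L) the shunt summed to 2727 ± 39.3 FPKM against 2755 ± 42.1 in wildtype, while the B12-dependent pathway summed to 762 ± 26.1 against 455 ± 8.33. In lonp-1(cmh24) the shunt summed to 2075 ± 15.8 FPKM and the B12-dependent pathway to 532 ± 59.0. In the double mutant the sums were 2089 ± 17.7 and 463 ± 5.86 FPKM. As FPKM are scaled by total reads, these sums carry the shifts given above. The shunt sum is mostly acdh-1 and alh-8, with 42.8% and 33.3% of it in wildtype and 35.9% and 44.0% in the double mutant.

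**Figure D4:**
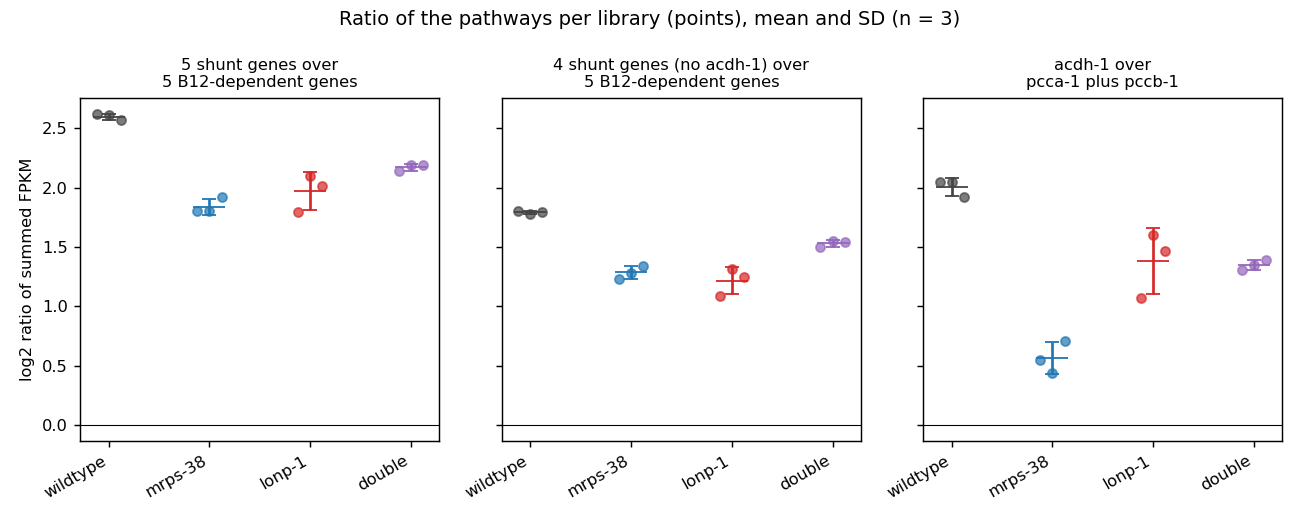
Log2 ratio of summed FPKM in each of the 12 libraries by genotype, with group mean and SD (n = 3), for the 5 shunt genes over the 5 B12-pathway genes (left), the same without acdh-1 (middle), and acdh-1 over pcca-1 plus pccb-1 (right). In the left panel wildtype libraries sit near 2.60 and the mutant libraries at 2.19 or less, and in the right panel mrps-38(P210L) is lowest.

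Within the routes the proportions changed as well. The ratio of acdh-1 to acdh-2 FPKM was 31.7, 37.3 and 36.4 in wildtype, 15.7, 15.6 and 16.7 in mrps-38(P210L), 197, 110 and 122 in lonp-1(cmh24), and 30.8, 30.9 and 30.7 in the double mutant. The double mutant thus lay just below the wildtype range in this ratio although acdh-1 itself stayed at the lonp-1(cmh24) level. The first enzymes of the routes, taken as acdh-1 over pcca-1 plus pccb-1, stood at 4.13, 4.13 and 3.79 in wildtype, 1.46, 1.36 and 1.63 in mrps-38(P210L), 2.10, 3.03 and 2.77 in lonp-1(cmh24), and 2.47, 2.54 and 2.61 in the double mutant. Here mrps-38(P210L) was lowest without overlap. Over the 12 libraries the median Pearson r was 0.84 within the shunt (10 pairs, 0.60 to 0.99) and 0.86 within the B12-dependent pathway (10 pairs, -0.54 to 0.99). Between them it was 0.64 (25 pairs, -0.77 to 0.88). Some pairs across the routes, such as hphd-1 with pcca-1 and alh-8 with mmcm-1 (both 0.88), stood above acdh-1 with acdh-2 (0.73) and with alh-8 (0.60). These correlations of log2(normalized count + 1) share libraries and genotype means and are a description. The negative values, within the B12-dependent pathway and between the routes, all belong to mmaa-1.

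Genes that act beside the routes were read from a list of 11. It held transporters, cofactor enzymes and regulators, and also ech-6, an enzyme within the shunt, which is counted below. Against wildtype, 8 of the 11 fell and 1 rose in lonp-1(cmh24), 2 fell and 4 rose in mrps-38(P210L), and 9 fell and 1 rose in the double mutant; these comparisons share the wildtype libraries. Of all genes tested 62.7%, 66.3% and 74.5% were called. Under total-read scaling the counts became 5 lower and 2 higher, then 4 lower and 2 higher, and again 9 lower and 1 higher, so that the balance in mrps-38(P210L) turned. The list medians were -0.37, 0.24 and -0.64 (-0.14, -0.01 and -0.63 under total-read scaling), beside -0.06, -0.01 and 0.09 over all genes tested. The enoyl-CoA hydratase ech-6, which acts between acdh-1 and hach-1, had 22497, 20470 and 20523 normalized counts in wildtype, 23618, 22307 and 22793 in mrps-38(P210L), 11532, 10976 and 11113 in lonp-1(cmh24), and 13762, 13520 and 13330 in the double mutant. It followed the shunt genes, falling in lonp-1(cmh24) (-0.92 ± 0.05, adjusted p = 7.85e-09) and in the double mutant (-0.64 ± 0.05, adjusted p = 1.19e-07), and was 0.12 ± 0.05 in mrps-38(P210L) (adjusted p = 0.0624).

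The nuclear receptors nhr-10 and nhr-68 are known to activate the shunt when propionate persists, and only nhr-68 of them was called against wildtype. Normalized counts of nhr-68 were 2005, 1875 and 1805 in wildtype, 1112, 1126 and 1182 in mrps-38(P210L), 1113, 991 and 1020 in lonp-1(cmh24), and 1060, 1102 and 1153 in the double mutant. All 9 mutant libraries were thus below the wildtype libraries, by -0.73 ± 0.06, -0.86 ± 0.06 and -0.78 ± 0.06 in the same order. The part of nhr-68 in the levels of the shunt genes was not tested. nhr-10 was at 0.27 ± 0.12 (adjusted p = 0.0547), -0.05 ± 0.12 (adjusted p = 0.738) and 0.01 ± 0.12 (adjusted p = 0.916). The methionine synthase reductase gene mtrr-1, whose enzyme keeps the other B12-dependent enzyme active, fell in all 3 mutants, by -1.09 ± 0.07 in lonp-1(cmh24), -1.07 ± 0.07 in the double mutant and -0.64 ± 0.07 in mrps-38(P210L). mrp-5 rose in lonp-1(cmh24) and also with both alleles together; it encodes a transporter known to move B12 out of the intestine (0.76 ± 0.11, adjusted p = 8.03e-05, and 0.59 ± 0.11, adjusted p = 5.01e-04). Changes of at least 1 in size were also found between mutants. The methionine synthase gene metr-1 (-1.25 ± 0.10), the methylenetetrahydrofolate reductase gene mthf-1 (-1.11 ± 0.06) and the transporter gene pmp-5 (-1.05 ± 0.12) were lower in the double mutant than in mrps-38(P210L). Between the single mutants, pmp-5 (-1.22 ± 0.12) and ech-6 (-1.03 ± 0.05) were lower with the lonp-1 allele.

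Beyond the routes themselves, 13 genes of branched-chain amino acid breakdown, among them genes of leucine breakdown such as ivd-1 and mccc-2 that do not lead to propionyl-CoA, and 6 genes that handle succinyl-CoA, the product of the B12-dependent pathway, were measured. In lonp-1(cmh24), 12 of the 13 fell against wildtype and none rose, beside 32.1% and 30.6% of all genes tested, led by kat-1 (-0.82 ± 0.04), mccc-2 (-0.73 ± 0.04) and ivd-1 (-0.71 ± 0.05), with a list median of -0.49. In the double mutant 11 of the 13 were higher than in lonp-1(cmh24) and none lower, beside 29.8% and 24.5% of all genes, led by ivd-1 (0.91 ± 0.05), bcat-1 (0.72 ± 0.05) and bckd-1B (0.56 ± 0.04), with a median of 0.41 beside 0.03 over all genes. Of the 6 succinyl-CoA genes, which include the subunits of succinyl-CoA ligase, 5 fell in lonp-1(cmh24) and none rose, and all 6 were higher in the double mutant than in lonp-1(cmh24). Under total-read scaling 10 of the 13 fell and 1 rose in lonp-1(cmh24), and against it 10 of the 13 were higher and 2 lower in the double mutant. Of the 6 succinyl-CoA genes, that scaling left 5 lower in lonp-1(cmh24) and 3 higher and none lower in the double mutant against it.

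The acyl-CoA dehydrogenase family, to which acdh-1 and acdh-2 belong, did not move as one. Of its 13 genes, 7 fell and 1 rose in lonp-1(cmh24), 7 fell and 5 rose in mrps-38(P210L), and 7 fell and 3 rose in the double mutant against wildtype. The shares of all genes tested that were lower were 32.1%, 34.7% and 33.6%, and those higher 30.6%, 31.5% and 40.9%. Under total-read scaling 5 fell and 2 rose in lonp-1(cmh24), and 3 rose in mrps-38(P210L). In mrps-38(P210L) the members changed most were acdh-8, acdh-5 and acdh-4, at -4.38, -3.28 and -2.51, and these were at 1.89, 1.87 and 1.79 in the double mutant. acdh-6 instead was lower than wildtype in both, at -1.25 ± 0.14 and -1.75 ± 0.14. acdh-8 was at 15.1, 17.2 and 15.3 FPKM in wildtype, 0.488, 0.262 and 1.70 in mrps-38(P210L), 14.5, 15.4 and 16.1 in lonp-1(cmh24), and 60.0, 57.0 and 61.2 in the double mutant. This is the same order of genotypes, apart from wildtype and lonp-1(cmh24), as the sperm markers above; the part of those markers in it was not tested. Outside the shunt, acdh-10 and acdh-7 fell in lonp-1(cmh24) (-0.85 and -0.78) and rose in mrps-38(P210L) (0.69 and 0.77), and in the double mutant they were lower than in mrps-38(P210L) (-1.52 and -1.51).

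**Figure D5:**
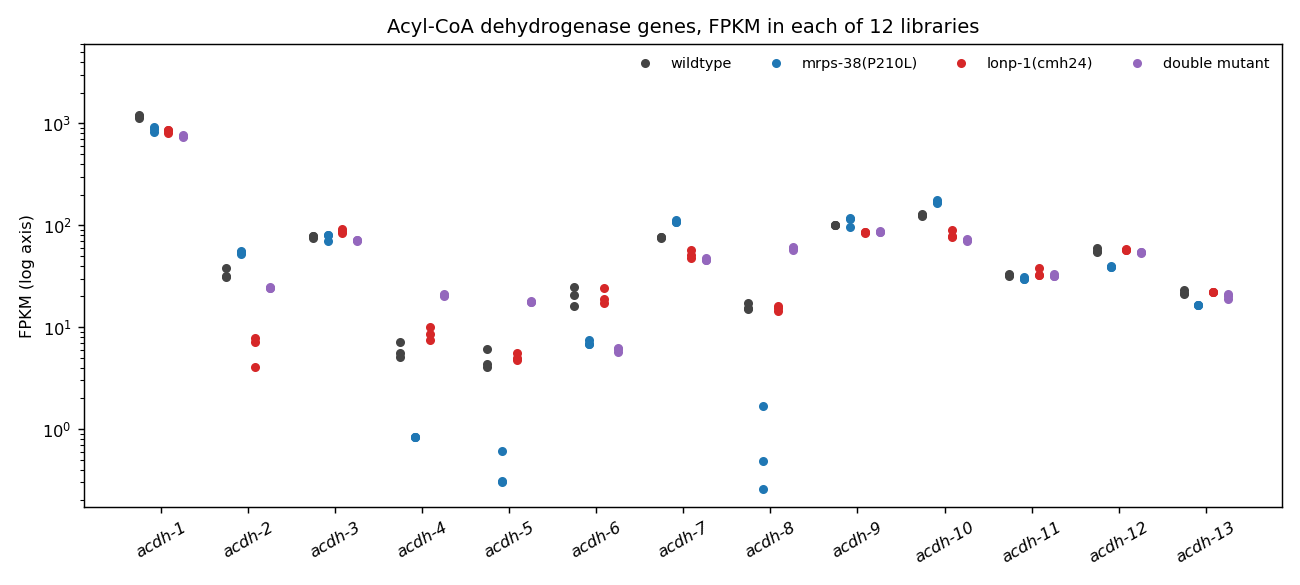
FPKM of the 13 acyl-CoA dehydrogenase genes in each of the 12 libraries, on a log axis, with points coloured by genotype. acdh-1 stands highest in every genotype, acdh-2 drops lowest in lonp-1(cmh24), and acdh-4, acdh-5 and acdh-8 are lowest in mrps-38(P210L) and highest in the double mutant.

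By Pearson r of log2(normalized count + 1) over the 12 libraries, the genes most like acdh-1 among 11979 compared were anmt-1, dnj-13, col-155, K09G1.1 and Y76B12C.3, with r from 0.985 to 0.988. Those most like mmcm-1 among 12264 compared were cct-3, sea-2, K02F3.2, pccb-1 and got-2.2, with r from 0.986 to 0.990. The carboxylase subunit pccb-1 was thus the only 1 of the 10 pathway genes among these neighbours. cct-3, the closest to mmcm-1, had mean normalized counts of 3899 in wildtype, 3295 in lonp-1(cmh24), 3576 in the double mutant and 7838 in mrps-38(P210L), and anmt-1, the closest to acdh-1, had 374, 174, 181 and 313. These are likenesses over 4 genotype means and their replicates, and carry no p.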

How the data were processed

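The 12 libraries (3 biological replicates of 4 genotypes) were grouped by their titles. Per the submitters' processing notes, the tools were STAR, featureCounts and DESeq2 and the build WBcel235; their versions are not given in the sources used here. Of the 2 tables the authors deposited, 1 holds normalized counts (a signal: reads divided by 1 size factor per library) and 1 holds FPKM. In the deposited normalized counts 100.0% of values were whole multiples of 1 step per library (within 0.01), which gave back the whole reads and size factors from 0.8479 to 1.2153. The authors' FPKM could be rebuilt from these reads to a relative deviation of 1.8e-14, so both tables hold the same reads under different scalings. Exon overlaps came from Ensembl release 115, whose positions of the 10 genes equal the deposited ones.

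The test was limma 3.58.1 (R 4.3.3, statmod 1.5.0) with trend and robust empirical Bayes on log2(normalized count + 1), in 1 fit of all 12 libraries with a mean per group and 7 contrasts. It covered the 15717 genes with a mean of at least 10, was two-sided and was adjusted by the Benjamini-Hochberg method over all of them. It was first run on simulated data in which few genes changed, in a single group only. Most genes differed in these data, so that run does not cover the scaling shifts given above. Alternatives were FPKM (pseudocount 0.1, mean of at least 0.5), TMM factors, pseudocounts 0.5 and 5, no filter, a mean of at least 50, only the groups compared, a replicate block, leaving out each library, and, on the recovered reads, edgeR 4.0.16 and DESeq2 1.42.0. Over the 7 contrasts edgeR called 9459 to 13124 genes and limma 8538 to 13141.

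The 10 genes and all lists were chosen with earlier results of these data known. Named were all 10 genes, lonp-1, called members of the neighbour and acyl-CoA dehydrogenase lists with a log2 fold change of at least 1 in size in a comparison, up to 4 called members of other lists, and the 5 genes most like acdh-1 and mmcm-1 (mean of at least 50). nhr-10, nhr-68 and mrp-5, and values of ech-6, acdh-7 and acdh-10 against wildtype, all below that size, were added after their values were seen. In lonp-1(cmh24) against wildtype, where 32.1% of all genes were lower and 30.6% higher, 12 aldehyde dehydrogenases gave 5 lower and 1 higher (4 and 4 under total-read scaling), and 8 enoyl-CoA hydratases gave 4 lower and 1 higher (2 and 3). In wildtype, mrps-38(P210L), lonp-1(cmh24), then double mutant libraries, the 6 epidermis markers summed to 402 to 429, 426 to 433, 255 to 268 and 76.5 to 79.4 FPKM. In that order the 6 yolk genes summed to 188 to 221, 1.23 to 7.65, 1513 to 2160 and 4898 to 4929 FPKM, and the 4 body wall muscle genes to 1252 to 1535, 1390 to 1418, 734 to 795 and 1111 to 1128.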

Additional observations from a re-analysis of the deposited data

Results flagged for a closer look

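For 9 of the 10 genes, all but alh-8, the effect of lonp-1(cmh24) differed between the mrps-38(P210L) and the wildtype background by the interaction term of limma, with all genes tested in 1 fit. The log2 differences between the effects (mrps-38(P210L) background minus wildtype background) were -1.2232 for pcca-1, -1.1501 for pccb-1, -0.5286 for mce-1, -0.4748 for mmcm-1 and -0.2476 for mmaa-1 in the B12-dependent pathway. In the shunt they were -0.4177 for hphd-1, -0.375 for hach-1, 0.2309 for acdh-1 and 1.2598 for acdh-2. The same term was called for 66% of all genes tested. The calls of acdh-1 and mmaa-1 depended on the scaling or on single libraries.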

How the results depend on the processing

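The 70 log2 fold changes of the 10 genes in 7 contrasts were recomputed under each alternative, which gave 1530 values, of which 1436 kept direction and call, 47 lost the call, 17 gained one and 30 changed sign. Of those that changed sign, only hach-1 (double mutant against lonp-1(cmh24)) was called to begin with, and the cause of the changes was not tested. Under total-read scaling the new values were, in lonp-1(cmh24) against wildtype, 0.0986 for pcca-1, 0.1657 for pccb-1 and 0.1332 for mmcm-1; in the double mutant against wildtype, 0.0028 for alh-8 and 0.0089 for mmcm-1; and for the double mutant set against lonp-1(cmh24), -0.1676 for acdh-1, -0.0395 for hach-1, -0.1419 for hphd-1, -0.0503 for pccb-1, -0.1015 for mce-1 and -0.1243 for mmcm-1. With TMM factors and with edgeR they were -0.0243 and -0.0134 for pccb-1 in the double mutant against wildtype, -0.075 and -0.071 for mmaa-1 against mrps-38(P210L), and, against lonp-1(cmh24), -0.0856 and -0.1053 for acdh-1, -0.0599 and -0.0792 for hphd-1, -0.0196 and -0.0485 for mce-1, -0.0424 and -0.0675 for mmcm-1, and (edgeR) -0.0011 for pccb-1. TMM factors shifted the median of all genes by -0.12 in the double mutant against wildtype and by -0.10 in the interaction, edgeR by -0.12 and -0.13. Leaving out 1 library each gave ranges of -0.1938 to 0.0438 for pccb-1 in lonp-1(cmh24) against wildtype, -0.0287 to 0.0165 for alh-8 and -0.0281 to 0.0277 for mmcm-1 in the double mutant against wildtype, -0.1495 to 0.0399 for pcca-1 against lonp-1(cmh24), and -0.0122 to 0.0437 for mmaa-1 against mrps-38(P210L). The number of the 10 genes called between the double mutant and lonp-1(cmh24) ranged from 3 to 7. Same-numbered libraries did not vary together (18 pairs, r from -0.159 to 0.122, 1 above 0.1), so the numbers were not taken as pairs; with a replicate block 69 of 70 results kept their call and acdh-2 in the double mutant against wildtype lost it (-0.4822, adjusted p = 0.0737). The log2 ratio of the routes was 2.0084, 1.7491, 1.4831 and 0.8896 in wildtype, mrps-38(P210L), double mutant and lonp-1(cmh24) libraries as a mean of log2(FPKM + 0.1), 1.7914, 1.285, 1.5304 and 1.2164 without acdh-1, and 1.7601, 1.2421, 1.5039 and 1.2089 without acdh-1 and acdh-2; wildtype stayed highest, but in these 3 forms lonp-1(cmh24) was lowest. The shallowest value was 172 reads, for acdh-2 in a lonp-1(cmh24) library, and counting error covers neither the biological spread nor the choice of scaling.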
